A study of Mus musculus with 4 samples.

Results

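The collagen genes were followed in newborn mouse hearts with and without the myocardin-related transcription factors. They were taken as every protein-coding gene whose symbol is Col, a number, the letter a and a number, which gave 44 of the 43346 gene identifiers counted. Of these, 11 encode chains of fibrillar collagens, 6 encode chains of the basement membrane collagen type IV, and 27 belong to other types. RNA was sequenced from homogenised hearts on postnatal day 0, in 2 wild type libraries of ICR background and 2 MRTFA/B double knockout libraries whose background is labelled Mixed. MRTFA and MRTFB are coactivators of serum response factor (SRF), which drives actin and contractile genes. The labels do not say in which cells either gene was deleted, nor whether the libraries of a group came from separate animals. P-values therefore reflect only how much these libraries differed, possibly for technical reasons, and genotype and strain background cannot be told apart.

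Collagens are secreted chains, rich in glycine and proline, that wind around each other in a rope-like helix. Fibrillar collagens assemble into the cables that give heart tissue its tensile strength, and in the heart fibroblasts are known as their main source. Type IV collagen forms the sheet-like network of basement membranes around cardiomyocytes, capillaries and smooth muscle cells. The remaining types coat fibrils, form fine filaments, anchor cells or sit in the cell membrane.

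Total counts ran from 16175259 to 29460641 per library. A count of 3 in 1 library, used as the detection floor, corresponded to 0.106 to 0.184 CPM. CPM values here carry edgeR's TMM scaling factors, which correct for differences in composition. Pairs of libraries of a group differed by more than sampling noise, with a mean chi-square per gene of 16.3 in wild type and 38.3 in double knockout, so no library repeated another. Of the targeted genes, Mrtfa was at 9.06 and 11.1 CPM in wild type against 3.35 and 2.26 CPM in double knockout, while Mrtfb was at 46.9 and 56.8 CPM against 46.0 and 49.6 CPM. Reads were summed over all exons, deleted or not, so the level of Mrtfb is no check of its label. The cardiac myosin Myh6, at 12968 to 17163 CPM, and the cardiac troponin Tnnt2, at 7569 to 8731 CPM, bore out the heart label. Of the skeletal muscle regulators, Myod1, Myf6 and Pax7 had 0 counts in all 4 libraries, Myog had 2 to 4 and Myf5 at most 1.

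Collagen transcripts as a family overlapped between the genotypes, with individual chains above and below. Summed over the 44 genes they came to 6816 and 7355 CPM in wild type against 5898 and 7073 CPM in double knockout. Of the 44 genes, 40 had enough counts to be tested, and the 4 that did not, Col2a1, Col6a4, Col10a1 and Col19a1, had at most 8 counts in any library. In edgeR's quasi-likelihood test over 16009 genes, 0 collagen genes had an adjusted p under 0.05, where 0.0750% of all genes did. At an unadjusted p under 0.05 there were 7 of 40 (17.5%), against 17.3% of all genes. Of these, 5 were higher (12.5%, against 8.70%) and 2 lower (5.0%, against 8.63%). DESeq2 called 2 of 40 (5.0%), against 3.20% of all genes; both were higher (background 1.69%) and 0 lower (background 1.51%). These 2 were Col23a1 and Col26a1, described below with their classes.

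The median log2 fold change of the 40 genes, double knockout against wild type, was 0.01, equal to the 0.01 over all genes tested, and 20 were positive and 20 negative, where 51.3% of all genes were positive. Groups did not overlap in 21 genes (52.5%, against 51.1% of all genes). In 11 of them (27.5%) double knockout was the higher group, against 25.8% of all genes, and in 10 (25.0%) the lower, against 25.2%. Each of these shares is near its background. Counts of calls moved with the library left out: 7 collagen genes (17.5%) passed without double knockout library 1 and 4 (10%) without double knockout library 2, where 17.1% and 8.24% of all genes did. With no filter on low counts 5 (12.5%) passed, against 6.07%. Without wild type library 1 or 2 the count was 0, against 0.0121% and 0.0180% of all genes, and for each collagen gene singled out here by its value without 1 library, edgeR's adjusted p was 0.971 without wild type library 1.

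**Figure D1:**
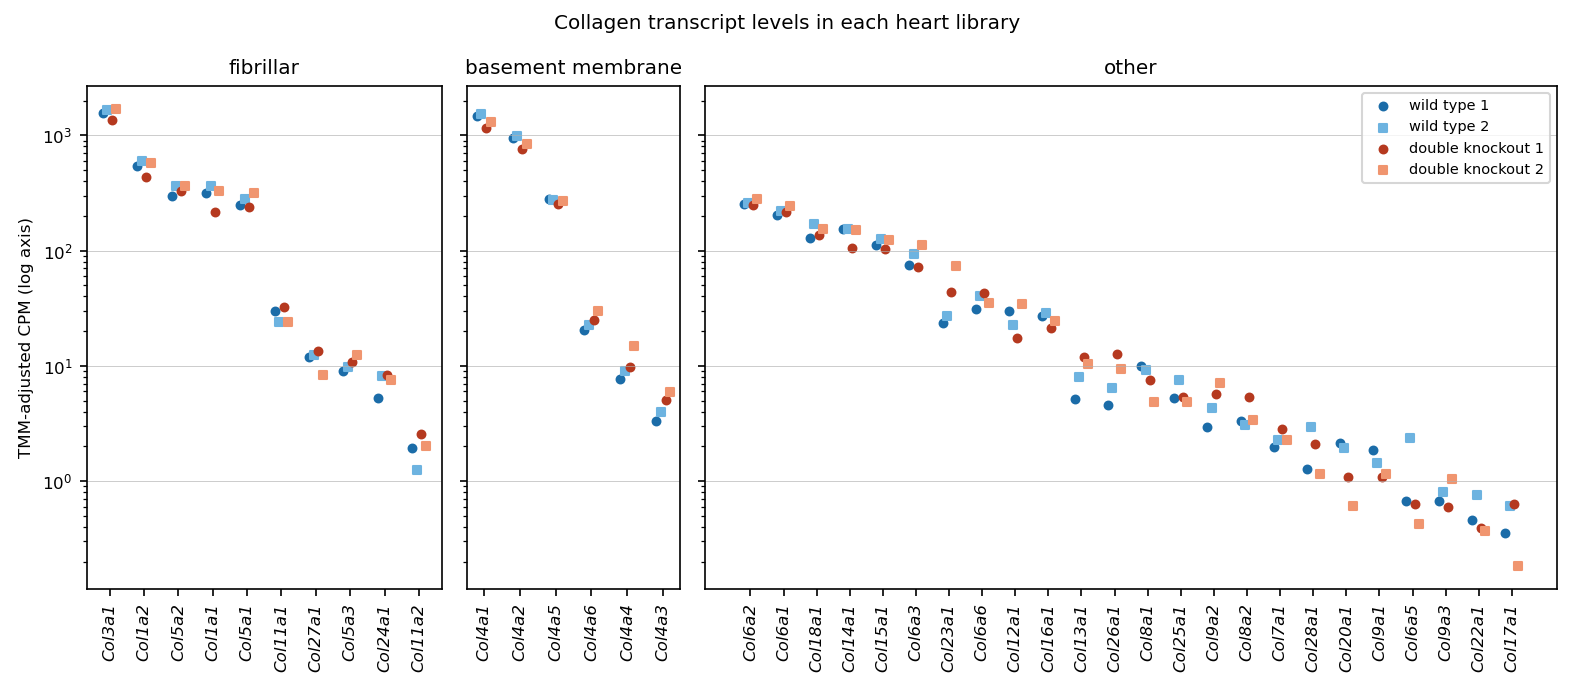
TMM-adjusted CPM (log axis) of the 40 tested collagen genes in each of the 4 libraries, in panels for fibrillar, basement membrane and other types; each point is 1 library. Col3a1, Col4a1 and Col4a2 stand highest, and the 4 libraries lie close together for most genes compared with the range between genes.

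A few chains made up most of the collagen reads. Collagen genes held 0.657% and 0.726% of all counts in wild type and 0.612% and 0.715% in double knockout. Col3a1, Col4a1 and Col4a2 together took 58.1% and 57.0% of the collagen counts in wild type and 55.4% and 54.2% in double knockout. The fibrillar share of all counts was 0.291% and 0.329% against 0.273% and 0.337%, and these ranges overlap. The basement membrane share was 0.262% and 0.279% in wild type and 0.228% and 0.248% in double knockout, so both double knockout libraries lay below both wild type libraries. With 2 libraries a group, an exact permutation test of such a value cannot go below p = 0.33.

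Per kilobase of merged exon (RPKM, from TMM-adjusted CPM), Col4a1 had the highest wild type level at 200.04, followed by Col3a1 at 164 and Col4a2 at 146. The next were Col1a1 at 52.0, Col6a1 at 48.5, Col1a2 at 45.9 and Col4a5 at 41.1. Merged exons of Col1a2 and Col3a1 include transcripts longer than the main coding one, which lowers their level: by the longest coding transcript Col3a1 stood first at 289.9, Col4a1 second at 226 and Col1a2 at 107.

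In TMM-adjusted CPM all 6 type IV chain genes had groups that did not overlap, where 51.1% of all genes did not, and they went both ways. For Col4a5 this held only with the TMM factors: as a share of all counts its groups overlapped. The 3 more abundant chains lay lower in double knockout hearts and the 3 rarer ones higher. Type IV chains associate in fixed combinations: the product of Col4a1 and Col4a2 is found in nearly all basement membranes, while that of Col4a3, Col4a4 and Col4a5 is best known from kidney, and that of Col4a5 and Col4a6 from smooth muscle and other sites.

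Col4a1 was at 1459.8 and 1526 CPM in wild type against 1153 and 1304 CPM in double knockout. Its log2 fold change was -0.28 (SE 0.12 and edgeR adjusted p = 0.321). Col4a2 was at 949.8 and 989 CPM against 754 and 834 CPM, which gave a log2 fold change of -0.29 (SE 0.12 and edgeR adjusted p = 0.295). For both genes the double knockout mean was 0.82 times the wild type mean, with the lower value in double knockout library 1, and neither passed the threshold in any of 15 alternative settings. Col4a5 differed less, at 279 and 272 CPM against 254 and 267 CPM. Its log2 fold change was -0.08 (SE 0.10 and edgeR adjusted p = 0.730), and over the alternative settings it ran from -0.12 to -0.010.

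Col4a3 was at 3.35 and 3.98 CPM in wild type against 5.01 and 5.87 CPM in double knockout (log2 fold change 0.57, SE 0.23; edgeR adjusted p = 0.279). Col4a4 was at 7.61 and 8.96 CPM against 9.70 and 14.8 CPM (0.56, SE 0.25; edgeR adjusted p = 0.321). Col4a6 was at 20.4 and 22.7 CPM against 24.9 and 29.8 CPM (0.34, SE 0.15; edgeR adjusted p = 0.319). In all 3 the double knockout libraries stood above both wild type libraries, with library 2 the higher. Without double knockout library 1, Col4a4 and Col4a6 passed the threshold (edgeR adjusted p = 0.0101 and 0.0458), and Col4a3 did not (0.0898). Without double knockout library 2 none of the 3 passed (edgeR adjusted p = 0.547, 0.447 and 0.303), and the fold change was 0.23 in place of 0.84 for Col4a4 and 0.21 in place of 0.47 for Col4a6.

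**Figure D2:**
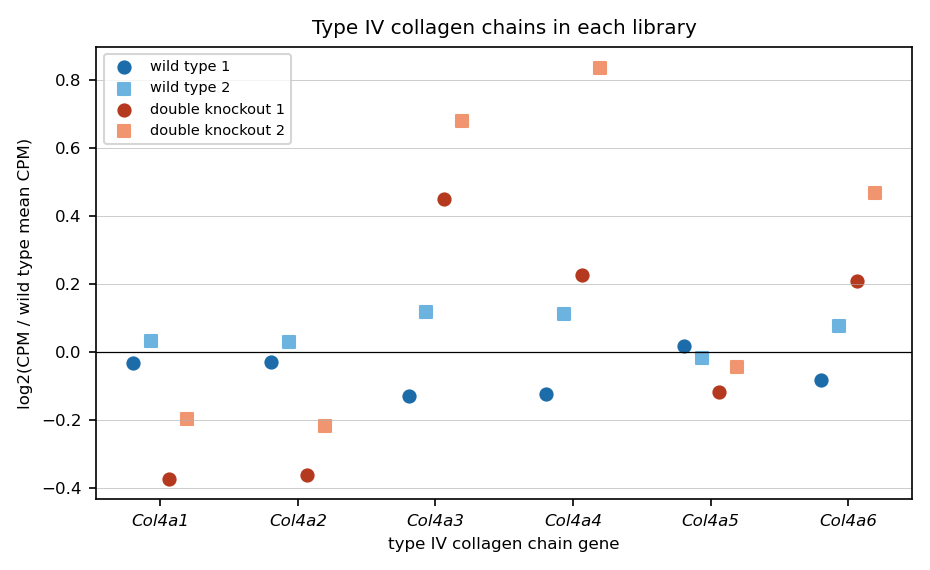
log2 of CPM over the wild type mean CPM for the 6 type IV chain genes, 1 point per library. Both double knockout libraries lie below both wild type libraries for Col4a1, Col4a2 and Col4a5 and above them for Col4a3, Col4a4 and Col4a6; the fold changes run from -0.29 to 0.57.

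Because the abundant chains dominate the sum, the type IV class has a summed level and a median of opposite sign. Summed type IV CPM were 2720.1 and 2824 in wild type and 2202 and 2456 in double knockout, whereas the median log2 fold change of the 6 genes was 0.13. The Col4a1 to Col4a2 ratio per length was 1.36 and 1.37 in wild type and 1.36 and 1.39 in double knockout, which overlap. The ratio of Col4a3 to Col4a4, chosen after seeing the data like the next one, was 0.468 and 0.473 against 0.550 and 0.422, which overlap. Per length, Col4a3 transcripts were 0.00172 and 0.00195 of Col4a1 in wild type and 0.00325 and 0.00337 in double knockout.

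The 6 genes lie in 3 head-to-head pairs, each transcribed outward from neighbouring starts. Members of the first 2 pairs had fold changes of like sign and size. In mm10, Col4a1 (minus strand, chromosome 8, 11198423 to 11312826) and Col4a2 (plus strand, 11312805 to 11449287) overlap by 22 bases at their starts. Col4a4 (minus strand, chromosome 1, 82448423 to 82586849) starts 72 bases from Col4a3 (plus strand, 82586921 to 82722059). Col4a6 (minus strand, chromosome X, 141165403 to 141474076) and Col4a5 (plus strand, 141475385 to 141689234) start 1309 bases apart, and there Col4a6 was higher and Col4a5 slightly lower. The ratio of Col4a6 to Col4a5 per length, also chosen after seeing the data, was 0.0615 and 0.0703 in wild type and 0.0825 and 0.0939 in double knockout, which do not overlap.

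Although those of Col4a5 and Col4a6 share no bases, the start regions of the type IV genes are shown because each pair lies head to head. They are RefSeq windows of 300 bases on GRCm38.p6, the assembly that mm10 names, from 250 bases before to 50 after the start site, 5′ to 3′ on the gene's strand. Capitals mark GGGCGG, the core of a GC box, and CCAAT, each on either strand.
Col4a1, chr8:11312777-11313076, minus strand: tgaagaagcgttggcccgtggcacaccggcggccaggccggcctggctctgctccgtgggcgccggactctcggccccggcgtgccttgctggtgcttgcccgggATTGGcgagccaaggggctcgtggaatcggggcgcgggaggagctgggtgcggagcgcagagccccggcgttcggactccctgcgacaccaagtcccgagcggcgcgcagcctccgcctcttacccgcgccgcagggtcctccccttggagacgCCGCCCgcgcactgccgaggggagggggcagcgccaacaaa
Col4a2, chr8:11312555-11312854, plus strand: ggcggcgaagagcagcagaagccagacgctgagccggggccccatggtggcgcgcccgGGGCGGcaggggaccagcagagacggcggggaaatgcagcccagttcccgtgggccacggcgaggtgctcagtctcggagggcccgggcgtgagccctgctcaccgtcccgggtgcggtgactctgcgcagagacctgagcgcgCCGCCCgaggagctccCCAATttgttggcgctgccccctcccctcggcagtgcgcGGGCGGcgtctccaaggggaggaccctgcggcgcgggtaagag
Col4a4, chr1:82586800-82587099, minus strand: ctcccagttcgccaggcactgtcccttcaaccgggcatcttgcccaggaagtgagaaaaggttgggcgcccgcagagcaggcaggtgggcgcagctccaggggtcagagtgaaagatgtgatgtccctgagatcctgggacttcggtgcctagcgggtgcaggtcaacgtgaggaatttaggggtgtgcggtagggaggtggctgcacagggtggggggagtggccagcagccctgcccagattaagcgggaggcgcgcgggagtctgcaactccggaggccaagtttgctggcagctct
Col4a6, chrX:141474027-141474326, minus strand: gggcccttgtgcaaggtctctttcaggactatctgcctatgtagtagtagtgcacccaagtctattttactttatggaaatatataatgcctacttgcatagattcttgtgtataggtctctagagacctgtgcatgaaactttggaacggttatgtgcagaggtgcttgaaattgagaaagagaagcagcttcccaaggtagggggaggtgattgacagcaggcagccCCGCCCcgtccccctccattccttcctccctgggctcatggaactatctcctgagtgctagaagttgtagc
Col4a5, chrX:141475169-141475468, plus strand: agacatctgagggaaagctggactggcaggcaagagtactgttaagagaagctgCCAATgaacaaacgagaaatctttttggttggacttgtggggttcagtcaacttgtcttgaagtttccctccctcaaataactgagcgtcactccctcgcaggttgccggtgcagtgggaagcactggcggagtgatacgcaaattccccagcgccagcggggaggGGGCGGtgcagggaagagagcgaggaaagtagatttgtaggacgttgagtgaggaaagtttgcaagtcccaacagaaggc

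The Col4a1 and Col4a2 windows share 78 bases, read on opposite strands, and the GC box near the end of the Col4a1 window is the last one of the Col4a2 window. The Col4a4 window also holds the Col4a3 start site, at position 179 counted from 1 at its 5′ end, and has 0 matches to either motif. Among the 38 windows found for 35 of the 44 collagen genes, GGGCGG was present in 23 (60.5%), against 35.7% of all 32851 windows. CCAAT was present in 13 (34.2%), against 37.4%. The CArG box, the sequence SRF binds, was found in 1 collagen window (2.63%), that of Col6a4, against 1.63% of all windows. TATAA was present in 7 (18.4%, against 24.9%), and GGAATG, the core that TEAD factors bind, in 5 (13.2%, against 14.7%). The searches covered both strands, a CArG box can itself contain CCAAT or TATAA, and a match is a match of letters only.

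Fibrillar collagens showed no shared direction. Of 11 genes 10 were tested, 6 with a positive and 4 with a negative fold change, and their median was 0.05 against 0.01 over all genes. Groups did not overlap in 2 of 10, against 51.1% of all genes; these were Col5a3 and Col11a2, both higher in double knockout. By edgeR 0 passed over all genes and 0 had an unadjusted p under 0.05, and DESeq2 called 0, where the shares over all genes were 0.0750%, 17.3% and 3.20%.

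The type I and type III chains, which build the main fibrils of the heart, were lowest in double knockout library 1. Col1a1 was at 316 and 366 CPM in wild type against 215 and 326 CPM in double knockout (log2 fold change -0.34, SE 0.21; edgeR adjusted p = 0.469). The second double knockout library fell between the wild type libraries, so the groups overlap. Without double knockout library 2 the fold change of Col1a1 was -0.67 with an edgeR adjusted p of 0.00887, and without library 1 it was -0.07. Col1a2, the partner chain of type I, was at 547 and 595 CPM against 432 and 578 CPM. Col3a1 was at 1552 and 1674 CPM against 1357 and 1696 CPM, a log2 fold change of -0.08 (SE 0.15).

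Chain proportions among these fibrils shifted by less than the choice of gene length. The ratio of Col3a1 to Col1a1 per length was 3.28 and 3.06 in wild type and 4.21 and 3.48 in double knockout, above wild type in both libraries. The ratio of Col1a1 to Col1a2 was 1.09 and 1.17 in wild type and 0.943 and 1.07 in double knockout, below wild type in both. By the longest coding transcript the mean of the first ratio over the 4 libraries moved from 3.51 to 5.59 and that of the second from 1.07 to 0.508, while the order of the groups stayed.

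Type V collagen sets the diameter of fibrils by sitting in their core. Its chains Col5a1 (247 and 279 CPM against 237 and 316 CPM) and Col5a2 (298 and 366 CPM against 326 and 363 CPM) overlapped between groups. The minor chain Col5a3 was at 9.09 and 9.76 CPM against 10.8 and 12.4 CPM (log2 fold change 0.30, SE 0.17; edgeR adjusted p = 0.419). Of the type XI chains, known from cartilage and developing valves, Col11a1 was at 30.1 and 24.1 CPM against 32.3 and 23.9 CPM, and Col11a2 at 1.94 and 1.25 CPM against 2.57 and 2.02 CPM. Col24a1 (5.29 and 8.20 CPM against 8.32 and 7.52 CPM) and Col27a1 (11.9 and 12.3 CPM against 13.4 and 8.32 CPM) overlapped. The cartilage chain Col2a1 had 4 and 4 counts in wild type and 7 and 3 in double knockout, near the floor of 3 counts.

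**Figure D3:**
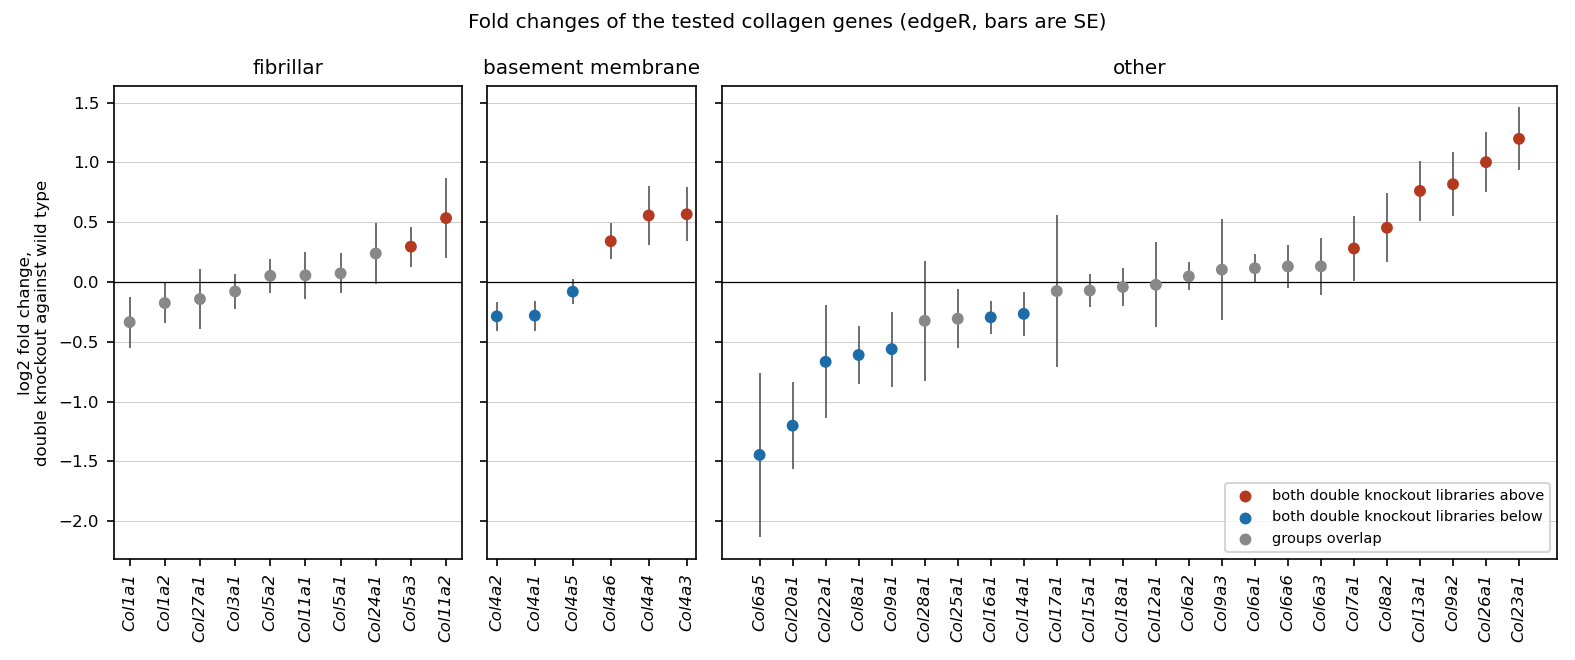
log2 fold change (double knockout against wild type, edgeR) of the 40 tested collagen genes with its SE, in panels by class; red and blue mark genes whose double knockout libraries both lie above or both below the wild type libraries, grey those whose groups overlap. The fibrillar panel is mostly grey, the 6 type IV genes are all coloured, and the other types span -1.45 to 1.20.

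Both collagen genes that DESeq2 called were of other types, a membrane-spanning collagen and a small secreted one. Col23a1 (chromosome 11, 51289920 to 51583918), a membrane-spanning collagen that can be shed from the cell surface, was at 23.6 and 27.1 CPM in wild type against 43.3 and 73.1 CPM in double knockout. The double knockout mean was 2.30 times the wild type mean (log2 fold change 1.20, SE 0.26; edgeR adjusted p = 0.156). DESeq2 called it higher (adjusted p = 0.00216), and it passed in 4 of 15 alternative settings, with edgeR adjusted p = 3.95e-06 and 0.00396 without double knockout library 1 or 2. Over all 15 the adjusted p, from edgeR, DESeq2 or limma, ran from 6.45e-10 to 0.971. Its RefSeq start region, shown because the gene had the largest positive fold change of the family, holds 1 GC box and no CCAAT or CArG box.
Col23a1, chr11:51289670-51289969, plus strand: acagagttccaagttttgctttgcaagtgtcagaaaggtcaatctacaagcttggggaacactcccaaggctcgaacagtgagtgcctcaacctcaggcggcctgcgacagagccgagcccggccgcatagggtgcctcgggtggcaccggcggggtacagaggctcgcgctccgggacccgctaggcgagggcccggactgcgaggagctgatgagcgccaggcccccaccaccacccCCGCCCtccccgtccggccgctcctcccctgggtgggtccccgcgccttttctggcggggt

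Col26a1 (chromosome 5, 136741759 to 136883209), a small secreted collagen with an EMI domain, was at 4.58 and 6.47 CPM in wild type against 12.6 and 9.42 CPM in double knockout. The ratio of means was 1.99 (log2 fold change 1.0, SE 0.25; edgeR adjusted p = 0.168; DESeq2 adjusted p = 0.0479). Without double knockout library 1 or 2 its edgeR adjusted p was 0.0494 and 0.00733, and the range over the alternatives was 0.00111 to 0.971. Col13a1, a membrane-spanning collagen found at cell contacts and neuromuscular junctions, was at 5.18 and 8.08 CPM against 12.0 and 10.4 CPM (0.76, SE 0.25; edgeR adjusted p = 0.225). Of the other membrane-spanning collagens, Col25a1 was at 5.22 and 7.47 CPM against 5.33 and 4.89 CPM, and the hemidesmosome collagen Col17a1 had 10 and 15 counts against 18 and 3. Those 2 overlapped between groups, so the class was not uniform.

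Among collagens that coat fibrils (the FACIT class), 8 of 9 genes were tested, 6 with a negative fold change, and the median was -0.28 against 0.01 over all genes. Groups did not overlap in 6, with 5 lower and 1 higher, where 25.2% and 25.8% of all genes were. By edgeR 0 passed, and 1 lower and 1 higher gene had an unadjusted p under 0.05, so no shift of the class was shown. Col14a1, a fibril-associated collagen of developing connective tissue, was at 154 and 153 CPM in wild type against 105 and 151 CPM in double knockout. Its fold change of -0.27 (SE 0.18; edgeR adjusted p = 0.498) rested on double knockout library 1: without library 2 it was -0.55 with an edgeR adjusted p of 0.0123, and without library 1 it was -0.03. Col16a1 was at 27.1 and 28.9 CPM against 21.2 and 24.5 CPM (-0.30, SE 0.14; edgeR adjusted p = 0.340).

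Lower-level FACIT genes diverged. Col20a1 was at 2.15 and 1.93 CPM against 1.09 and 0.612 CPM (-1.20, SE 0.36; edgeR adjusted p = 0.199, with 0.0179 without double knockout library 1 and 0.142 without library 2). Its fold change was -1.73 and -0.90 in those fits. The 3 chains of type IX, a partner of cartilage fibrils, went apart. Col9a1 was at 1.87 and 1.45 CPM against 1.09 and 1.16 CPM. Col9a2 was at 2.96 and 4.30 CPM against 5.68 and 7.16 CPM (0.82, SE 0.27; edgeR adjusted p = 0.222, with 0.0258 without double knockout library 1 and 0.161 without library 2). Col9a3 was at 0.670 and 0.804 CPM against 0.600 and 1.04 CPM. Col12a1, which is known to respond to mechanical load, differed within both groups, at 30.1 and 22.5 CPM against 17.5 and 34.6 CPM. Col22a1, a collagen of tissue junctions, had 13 and 19 counts against 11 and 6; its gene lies 8.98 Mb from Mrtfa, so DNA linked to the targeted locus cannot be told apart from genotype. Col19a1 had at most 8 counts in any library.

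Type VI collagen, which forms beaded filaments around muscle cells, had overlapping groups in 4 of its 5 tested chains. Over all genes tested, 51.1% had groups that did not overlap. Col6a1 was at 204 and 221 CPM in wild type against 217 and 244 CPM in double knockout, and Col6a2 at 252 and 261 CPM against 247 and 282 CPM. Their ratio per length was 1.54 and 1.61 against 1.66 and 1.64, which do not overlap. By the longest coding transcript the mean over the libraries was 0.963 in place of 1.61. Col6a3 was at 74.3 and 92.9 CPM against 71.5 and 112 CPM, and Col6a6 at 30.9 and 40.5 CPM against 42.8 and 35.2 CPM. Of the rare chains, Col6a5 had 19 and 59 counts in wild type and 18 and 7 in double knockout. Its fold change of -1.45 (SE 0.69; edgeR adjusted p = 0.351) was the largest of the family in size, and with no filter on low counts it passed (edgeR adjusted p = 0.0302, beside a highest value of 0.971 over the alternatives). Col6a4 had 2 and 7 against 4 and 3.

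The multiplexins, which sit at the outer face of basement membranes, also overlapped. Col15a1 was at 112 and 127 CPM against 104 and 124 CPM, and Col18a1, whose end fragment is endostatin, at 129 and 169.8 CPM against 135 and 155 CPM. The short-chain network collagens of type VIII, found around vessels and valves, diverged. Col8a1 was at 9.90 and 9.28 CPM against 7.55 and 4.89 CPM (-0.61, SE 0.25; edgeR adjusted p = 0.284). Without double knockout library 1 its fold change was -0.97 with an edgeR adjusted p of 0.0106, and without library 2 it was -0.35 with 0.325. Col8a2 was at 3.35 and 3.09 CPM against 5.36 and 3.36 CPM. Col10a1, a marker of hypertrophic cartilage, had 0 and 0 counts against 5 and 1. The anchoring fibril chain Col7a1 was at 1.97 and 2.25 CPM against 2.82 and 2.26 CPM, and Col28a1, a collagen of peripheral nerve, at 1.27 and 2.93 CPM against 2.08 and 1.16 CPM.

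Across classes, then, the medians of the log2 fold change were 0.05 for fibrillar, 0.13 for basement membrane and -0.03 for other collagens. In double knockout libraries 1 and 2 the class medians of log2 CPM over the wild type mean were 0.06 and 0.10, 0.05 and 0.21, and -0.18 and 0.05. In the wild type libraries they ran from -0.12 to 0.11. No test of the difference between classes was made, since the classes differ in the number and level of their genes.

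**Figure D4:**
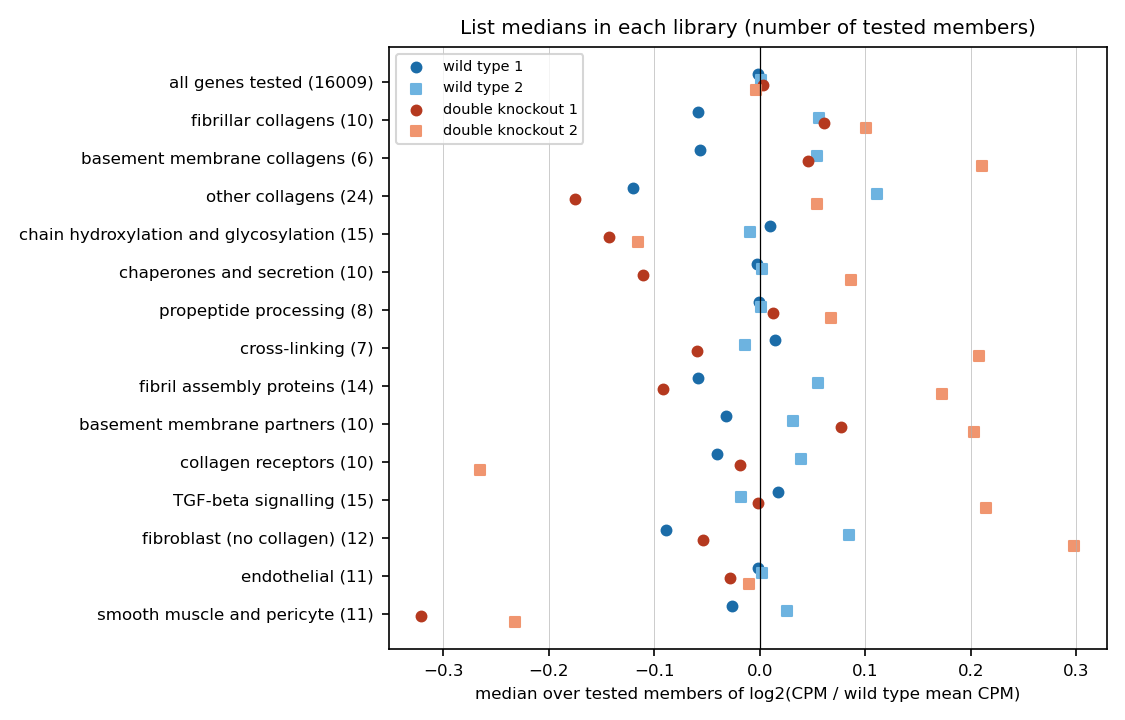
Median over the tested members of log2 CPM over the wild type mean CPM in each library, for all genes, the collagen classes, the collagen pathway lists and 3 marker lists, with the number of tested genes in brackets. The fibrillar and basement membrane class medians lie between -0.06 and 0.21 in all 4 libraries, and those of smooth muscle and pericyte markers lie at -0.32 and -0.23 in the double knockout libraries.

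Genes that make, process and bind collagen, like the chains, gave 0 edgeR calls. Of 91 such genes 89 were tested, edgeR called 0 over all genes, 13 (14.6%) had an unadjusted p under 0.05, 4 higher and 9 lower, and groups did not overlap in 44 (49.4%). The shares over all genes were 17.3% and 51.1%. At that unadjusted p 8.70% of all genes were higher and 8.63% lower. The share of lower genes in these lists was thus near that of all genes, and the share of higher genes was below it. Of the collagen chains 5 were higher and 2 lower. DESeq2 called 1 of 89, against 3.20% of all genes, and the median was 0.04. Without double knockout library 1, edgeR called 22 of 89, against 17.1% of all genes, and without library 2 it called 3 of 89, against 8.24%.

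Enzymes that hydroxylate and glycosylate the chains had a median of -0.18, with 10 of 15 negative. P4ha2 and P4ha1, catalytic subunits of prolyl hydroxylase, were at 28.2 and 27.1 CPM in wild type against 21.6 and 20.9 CPM, and at 52.2 and 46.7 CPM against 41.8 and 39.0 CPM. Their shared subunit P4hb was at 327 and 323 CPM against 364 and 337 CPM. Among chaperones and secretion factors (median 0.00, 5 of 10 negative), the collagen chaperone Serpinh1 (HSP47) was at 500.0 and 499 CPM in wild type against 381 and 306 CPM in double knockout. Its log2 fold change was -0.54 (SE 0.14; edgeR adjusted p = 0.172; DESeq2 adjusted p = 0.0572), and both double knockout libraries lay below. The matrix protein Sparc, which binds collagen outside the cell, was at 1057 and 1183 CPM against 1287 and 1226 CPM.

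Propeptide processing held the DESeq2 call of these lists. Tll1, a protease of the BMP1 family that trims procollagen, was at 4.23 and 6.03 CPM in wild type against 9.49 and 11.0 CPM in double knockout (log2 fold change 1.0, SE 0.24; DESeq2 adjusted p = 0.0397; edgeR adjusted p = 0.159). Its relative Tll2 was at 0.811 and 0.804 CPM against 0.247 and 0.0612 CPM. These were 23 and 20 counts against 7 and 1, the last below the floor of 3 counts (edgeR adjusted p = 0.173). Pcolce, which enhances the trimming, was at 88.3 and 87.4 CPM against 68.0 and 69.9 CPM. In this list 6 of 8 were positive with a median of 0.12. Cross-linking enzymes had a median of -0.06 in 7 genes, and Pxdn, which cross-links type IV collagen, was at 372 and 423 CPM against 381 and 309.8 CPM.

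Fibril assembly proteins had a median of 0.09 in 14 tested genes, 8 of them positive. Postn, a matricellular protein that aids cross-linking, was at 1251 and 1301 CPM against 963 and 1283 CPM, with the low value in double knockout library 1 as for Col1a1. Fmod, which binds fibrils, was at 11.6 and 11.9 CPM against 9.17 and 8.50 CPM, and Comp at 1.59 and 1.97 CPM against 2.50 and 3.55 CPM. Of the laminins, nidogens and proteoglycans that join type IV collagen, 8 of 10 were positive with a median of 0.12. Lama2, the laminin chain of muscle basement membranes, was at 219 and 258 CPM against 306 and 345 CPM (0.45, SE 0.13; edgeR adjusted p = 0.198), Nid2 at 93.2 and 99.1 CPM against 79.0 and 72.0 CPM, and Lamc1 at 697 and 698 CPM against 696 and 705 CPM.

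Collagen receptors were negative in 7 of 10 tested genes with a median of -0.08. Itga2, the integrin subunit that binds type I collagen, was at 10.9 and 9.48 CPM in wild type against 6.28 and 5.02 CPM in double knockout (-0.84, SE 0.20; edgeR adjusted p = 0.159; DESeq2 adjusted p = 0.0699). Its partner Itgb1 was at 1401 and 1199 CPM against 1099 and 1252 CPM. Genes of TGF-beta signalling, a main inducer of collagen synthesis, were positive in 12 of 15 with a median of 0.05. Smad4, which carries the signal to the nucleus, was at 67.1 and 65.5 CPM against 77.8 and 88.5 CPM. Ccn2, a TGF-beta response gene, was at 97.1 and 35.9 CPM against 59.5 and 427 CPM, and double knockout library 2 stood apart.

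In bulk RNA of hearts, fewer cells of a type and less RNA per cell cannot be told apart. In each marker list below edgeR called 0 genes, against 0.0750% of all genes, and the calls given are those of DESeq2. Markers of fibroblasts other than collagens had a median of 0.17 in 12 genes, 8 of them positive, and summed to 2741 and 2937 CPM in wild type, against 2501 and 3117 CPM. The most abundant were Postn, given above, and Fn1 at 536 and 603 CPM against 511 and 622 CPM, and both overlapped between groups. Endothelial markers had a median of -0.02 in 11 genes and summed to 1507 and 1557 CPM against 1474 and 1526 CPM, with Pecam1 at 297 and 326 CPM against 327 and 345 CPM and Cdh5 at 299 and 331 CPM against 254 and 303 CPM. Smooth muscle and pericyte markers were negative in all 11, with a median of -0.33. They summed to 4399 and 2919.6 CPM against 1829 and 1683 CPM. Most of that difference was Acta2, an SRF target and the most abundant of them. It was at 2962 and 1468 CPM against 535 and 439 CPM. The next, the pericyte gene Abcc9, was at 467 and 503 CPM against 499.7 and 465 CPM, a log2 fold change of -0.0082. DESeq2 called 2 of the 11 lower, Acta2 (DESeq2 adjusted p = 2.78e-09) and Cnn1 (DESeq2 adjusted p = 7.61e-05). By edgeR neither passed (edgeR adjusted p = 0.141 for each). Over all genes it called 1.69% higher and 1.51% lower. Epicardial markers had a median of 0.16 in 9 genes, led by Tbx18 at 35.1 and 25.5 CPM against 77.2 and 49.2 CPM (DESeq2 adjusted p = 0.0100) and Upk3b at 33.3 and 38.8 CPM against 41.4 and 34.8 CPM. Endocardial and valve markers had a median of 0.07 in 8, led by Vcan at 247 and 247 CPM against 263 and 325 CPM and Npr3 at 123 and 163 CPM against 179.8 and 277 CPM. In that list 4 were positive and 4 negative. DESeq2 called 2 of the 8 lower, against 1.51% of all genes, and these were Hapln1 and Cthrc1. Hapln1, a hyaluronan link protein that the chondrocyte list also holds, was at 10.3 and 9.48 CPM against 4.51 and 5.14 CPM (DESeq2 adjusted p = 0.0101). Cthrc1, a secreted protein with a collagen-like repeat, was at 6.13 and 5.38 CPM against 2.61 and 2.81 CPM (DESeq2 adjusted p = 0.0440). Macrophage markers had a median of 0.34 in 10 genes, 8 of them positive. They summed to 99.4 and 101 CPM against 129 and 124 CPM. In both double knockout libraries 5 were higher and 0 lower, where 25.8% and 25.2% of all genes were. The most abundant were Mrc1 (29.9 and 26.3 CPM against 28.9 and 36.0 CPM) and Csf1r (17.1 and 17.7 CPM against 24.6 and 15.2 CPM), and DESeq2 called Cd163 higher (3.14 and 3.01 CPM against 5.29 and 11.0 CPM; adjusted p = 0.0356). Cardiomyocyte markers were negative in 7 of 11 with a median of -0.16, and erythroid markers had a median of 0.04 in 9 genes. DESeq2 called 1 cardiomyocyte marker higher, Nppa (DESeq2 adjusted p = 1.78e-07; edgeR adjusted p = 0.0957), and 1 lower, Mb (DESeq2 adjusted p = 0.000164; edgeR adjusted p = 0.126). It called 1 erythroid marker lower. Chondrocyte, Schwann cell and skeletal muscle lists had 5 of 8, 4 of 7 and 3 of 8 members tested. Their medians were 0.18, 0.33 and -0.80. The chondrocyte genes Snorc and Matn1 had at most 2 counts in any library, while Acan had 35 to 115 and Hapln1 84 to 292. Of the 5 tested chondrocyte genes, 3 were positive and 2 negative. In the skeletal muscle list the regulators Myod1, Myog, Myf5, Myf6 and Pax7 had at most 4 counts in any library. Its median thus rested on Ckm, Acta1 and Actn3 alone and was the value of Ckm. Ckm was at 2082 and 1959 CPM in wild type against 1082 and 1244 CPM in double knockout. Acta1 was also lower (log2 fold change -4.43), and Actn3, with 4 to 26 counts, was higher (2.47). DESeq2 called Ckm and Acta1 lower. The part of these cell types in the collagen values was not tested.

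Reads of a few chains could be shared with overlapping genes, because no source used here gives the strand setting of the counting. Exons of 13 collagen genes overlap those of another gene, by at least 100 bases in 5. For Col4a3 the partner is C430014B12Rik on the opposite strand (563 bases), which had 1 to 8 counts per library, and for Col9a3 it is Tcfl5 (234 bases), which had 1 to 3.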

How the data were processed

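Each library came with raw counts of reads per gene, deposited by the authors. The submitters' processing notes name HTSeq, DESeq 1.10.1 and build mm10. No source used here gives the aligner, annotation release or strand setting. Each table held 43346 identifiers, of which GENCODE M21, of the same build, named 42462. Promoter windows are from RefSeq on GRCm38.p6.

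All 4 libraries entered 1 fit of edgeR 4.0.16 (R 4.3.3): filterByExpr defaults, TMM factors, robust quasi-likelihood test, no covariate, Benjamini-Hochberg adjustment over all genes tested and a threshold of 0.05. The fit was checked on simulated counts. DESeq2 1.42.0 used its defaults on the same genes. Other alternatives were limma-voom (limma 3.58.1), other scaling factors and filters, a replicate block and leaving out each library. Levels per length used merged exons or, as an alternative, the longest coding transcript.

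Collagen genes with at least 10 counts in total were named, and Col10a1, with fewer, was added so that every gene is accounted for. From each pathway list came up to 3 genes with the smallest unadjusted p under 0.05 and the gene with the highest mean CPM, and from most marker lists described the 2 genes with the highest mean CPM. The skeletal muscle regulators and the ratios said to be added were chosen after their values were seen. So were Snorc, Matn1, Acan, Hapln1, Cthrc1, Cd163, Cnn1, Nppa, Mb, Ckm, Acta1 and Actn3. The members and lists were chosen with earlier results of these data known. One gene that the rule names is not reported here.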

Additional observations from a re-analysis of the deposited data

How the results depend on the processing

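Beside the reported fit, 15 settings were run for the gene tests. Collagen genes past the threshold numbered 0 as reported, 5 with no filter and 2 in DESeq2, and 0 to 7 with 1 library left out. Genes of the pathway lists past it numbered 6 with no filter, 1 in DESeq2 and 0 to 22 with 1 library left out. The fibrillar median was 0.13 with no composition factors and -0.071 to 0.10 with 1 library left out; that of other collagens was -0.18 to 0.16. By the longest coding transcript the mean ratios were 0.508 (Col1a1 to Col1a2), 5.59 (Col3a1 to Col1a1), 1.504 (Col4a1 to Col4a2), 0.628 (Col5a1 to Col5a2) and 0.963 (Col6a1 to Col6a2). Over a total without erythroid and mitochondrial genes the mean shares were 0.773% for collagens, 0.351% for fibrillar, 0.290% for basement membrane and 0.132% for other types.

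With no composition factors, Col12a1 reversed to 0.044 and Col18a1 to 0.025, beside a shift of the median of all genes from 0.01 to 0.08. Lamc1 reversed to -0.0018 with upper-quartile factors and to -0.010 with no filter. With 1 library left out these fold changes took both signs, from low to high: Col11a1 -0.18 to 0.25, Col12a1 -0.59 to 0.39, Col15a1 -0.21 to 0.052, Col17a1 -1.34 to 0.42, Col18a1 -0.23 to 0.15, Col1a2 -0.40 to 0.018, Col24a1 -0.051 to 0.57, Col27a1 -0.54 to 0.15, Col28a1 -0.84 to 0.37, Col3a1 -0.25 to 0.071, Col5a1 -0.15 to 0.26, Col5a2 -0.092 to 0.19, Col6a2 -0.054 to 0.14, Col6a3 -0.23 to 0.42, Col6a6 -0.057 to 0.32, Col9a3 -0.29 to 0.50, Postn -0.41 to 0.0062, Lamc1 -0.0069 to 0.014, Ccn2 -0.17 to 2.76, Mrtfb -0.25 to 0.012, and of the marker genes Fn1 -0.16 to 0.13, Upk3b -0.052 to 0.20, Abcc9 -0.064 to 0.041, Tnnt2 -0.024 to 0.18 and Csf1r -0.20 to 0.50. A fit without a library leaves 1 in its group, assumed to vary like the other group. The causes of these changes were not tested.

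The labels number the libraries 1 and 2 in each group without saying that a number pairs them. The deviations of same-numbered libraries from their group means had a correlation of -0.105. With the replicate block 0 collagen genes passed, and with the crossed pairing, added after seeing the data, 0 did; over all genes 2 and 3 passed.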
